A study of Mus musculus with 10 samples.

Results

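The glucocorticoid stress axis was followed through 10 genes: the receptor genes Nr3c1 and Nr3c2, the response genes Fkbp5, Sgk1, Tsc22d3, Klf9, Zbtb16 and Errfi1, and the corticotropin-releasing genes Crh and Crhr1. The genes were taken by name from the RefSeq annotation of the mouse genome, and all 10 were found among 21887 protein-coding genes on the chromosomes. H3K4me3, the trimethylated lysine 4 of histone H3 that marks active promoters, was profiled with ChIP-seq (sequencing of immunoprecipitated chromatin) in NeuN+ nuclei sorted from the hippocampal area CA1. The groups were 4 libraries of male CamkdeltaC transgenic mice and 4 of male littermate controls, all aged 3 months. CamkdeltaC names a splice form of the calcium/calmodulin-dependent kinase CaMKII delta, and the series title sets the transgene in the context of heart failure and memory. The labels do not name the promoter that drives the transgene, nor do they say that each library came from its own animal, so the p-values reflect sample-to-sample spread that may be purely technical. The protocol text describes vorinostat and vehicle in drinking water, and no sample carries a drug label. The 2 input samples, 1 per genotype, were not analysed here.

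Corticosterone, the main glucocorticoid of mice, enters neurons and binds the mineralocorticoid receptor (Nr3c2) with high affinity and the glucocorticoid receptor (Nr3c1) with lower affinity, so that the former is largely occupied at rest and the latter during stress. CA1 pyramidal neurons carry both receptors. The bound receptor moves to the nucleus and acts on DNA, often at a palindromic response element, and its chaperone Fkbp5 feeds back by lowering hormone binding. Crh encodes the peptide that starts the hormonal stress cascade and also acts within the brain through its receptor Crhr1.

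The deposited data are peak lists, 1 per library, with between 51903 and 102285 peaks. They hold no read counts, so the depth behind each value is unknown, and breadth was measured: the base pairs (bp) covered by peaks. For each gene this was done in the window of 2 kb to each side of the better covered gene end, over the whole region there (a region being the union of overlapping peaks of the 8 lists), and over the other peaks inside the gene. The transgenic 1 library stood apart, with 102285 peaks against 51903 to 66811 in the other 7. Chromosome X held 30.7% of its peaks, about 20% of those of transgenic 4, control 2 and control 3 (19.5% to 20.7%), and 2.00% to 2.21% in the other 4. Rbfox3, which encodes NeuN itself, had 582 to 707 bp of peaks in its window in all 8 libraries. CA1 pyramidal markers had a peak there in all 8 libraries for 8 of 9 genes, interneuron markers for 10 of 12, dentate gyrus markers for 5 of 7, astrocyte markers for 7 of 11, oligodendrocyte lineage markers for 4 of 12, endothelial markers for 2 of 10 and microglial markers for 1 of 11.

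H3K4me3 was present at all 10 genes: each had at least 1 region with a peak in every library. In the gene-end window, 9 of 10 had a peak in all 8 libraries, the exception being Nr3c1, against 61.9% of all coding genes. No member passed the test of transgenic against control libraries in any of the 3 measures. Differences are given as transgenic minus control on the scale of log2(bp + 100), after each library was centred on its own median, with the standard error (SE) and the adjusted p of limma over all features tested. Over all features limma called 0% of 14753 windows (608 had an unadjusted p under 0.05), 0.0482% of 72683 regions (35 regions, 33 of them wider in transgenic libraries) and 0% of 4726 genes for inside peaks (316 with an unadjusted p under 0.05).

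The 10 genes fell into a broad and a narrow set by the widest region of each. Its covered length, as mean ± SD over the 8 libraries, was 7023 ± 271 bp at Zbtb16, 6909 ± 506 bp in Nr3c1, 6280 ± 438 bp in Sgk1, 5584 ± 324 bp at Nr3c2 and 5055 ± 220 bp at Klf9. It was 2895 ± 334 bp at Crhr1, 2255 ± 202 bp at Errfi1, 2000 ± 259 bp in Tsc22d3, 1578 ± 175 bp at Fkbp5 and 951 ± 244 bp at Crh. Neighbours in this order had overlapping ranges over the libraries, except Klf9 (lowest library 4603 bp) and Crhr1 (highest library 3331 bp). Both receptor genes thus lay among the broad ones, beside the transcription factors Zbtb16 and Klf9 and the kinase Sgk1. In all 10 genes the transgenic and control libraries overlapped in this length, at Nr3c2 only through transgenic 1 (5625 bp) and control 2 (5636 bp). Overlap was the rule over all 72683 regions tested. All 4 transgenic libraries lay above all 4 control libraries in 3.26% of them and below in 0.169%.

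**Figure D1:**
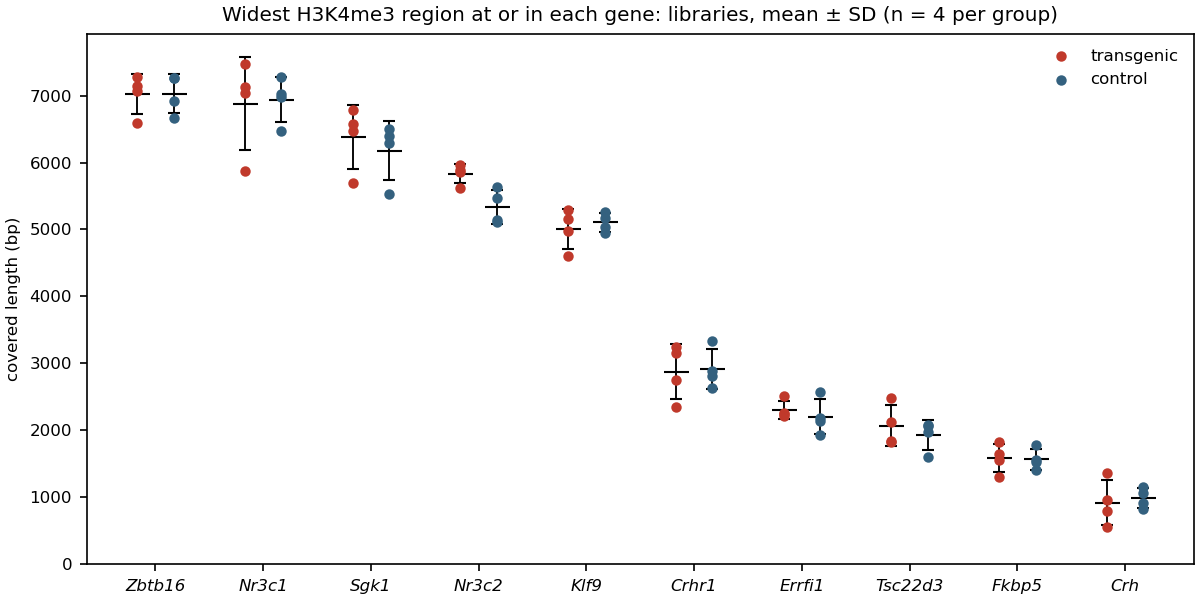
Covered length in bp of the widest H3K4me3 region at or in each gene, with a point per library, transgenic in red and control in blue, and black bars for mean ± SD (n = 4 per group). Zbtb16, Nr3c1, Sgk1, Nr3c2 and Klf9 lie at 4603 bp and above in all 8 libraries, the other 5 genes at 3331 bp and below.

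Nr3c1 encodes the glucocorticoid receptor and spans chr18:39410545-39519421 (mm10). Its annotated ends were nearly bare: the window at the better end held a single peak of 200 bp in transgenic 4 and nothing in the other 7 libraries, too few for a test. No RefSeq start of Nr3c1 was on hand, so whether its marked regions lie at a start could not be read. The widest marked region lay within the annotated gene span, at chr18:39484634-39492134, 27287 bp from the nearer end. There the covered length was 5877, 7041, 7131 and 7468 bp in transgenic 1 to 4 and 6983, 7030, 6470 and 7275 bp in control 1 to 4. The groups overlapped, with transgenic 1 the lowest and transgenic 4 the highest, and limma gave a log2 difference of −0.12 ± 0.06 (SE; adjusted p = 0.702). A smaller region next to it, chr18:39483454-39484263, was also present in all 8 libraries, with 232 to 772 bp. All peaks inside the gene added up to 6927 to 8397 bp in transgenic and 6790 to 8518 bp in the control libraries, a log2 difference of −0.09 ± 0.08 (limma, adjusted p = 0.906). This total exceeded that of 97.0% of the 4726 genes tested for inside peaks. It includes the widest Nr3c1 region, which does not touch the better end window. In genes marked at an annotated end, the region there is left out of the inside total. The rank therefore does not compare like with like.

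Nr3c2 encodes the mineralocorticoid receptor and spans chr8:76898083-77245012. Its main region, chr8:76898520-76905071, covered 5625, 5958, 5881 and 5855 bp in transgenic 1 to 4 and 5142, 5636, 5463 and 5114 bp in control 1 to 4. The transgenic libraries were higher in these raw lengths, apart from transgenic 1 against control 2. Regions with a peak in all 8 libraries were, at the median, 0.11 wider on the log2 scale in transgenic libraries across the genome, and relative to that shift the Nr3c2 difference was 0.02 ± 0.04 (limma, adjusted p = 1.00, interval −0.07 to 0.11). Without centring it was 0.13 (limma, adjusted p = 0.397). The region was broader than 99.7% of the tested regions by mean length. Those regions needed a peak in only 2 libraries and had a median length of 195 bp. The annotated-end window, which reaches only part of the Nr3c2 region, exceeded 38.3% of all windows tested. The RefSeq start on hand, at position 76902330 on the plus strand, lay off centre in the region. From it the region reached a median of 3662.5 bp upstream and 1970.5 bp downstream, and the longer arm was upstream in all 8 libraries. The annotated gene begins at position 76898083, before that start, and the whole region lies inside it. Upstream here thus refers to the start on hand and not to the annotated gene start. At the other RefSeq starts of members that had a peak in all 8 libraries, the longer arm was downstream in all 8, or in 7 of 8 at the distal Tsc22d3 start. The lncRNA gene Gm10649 overlaps the upstream arm and ends at position 76900621, so the covered bases there cannot be assigned to Nr3c2 alone. Within 2 kb of the RefSeq start the covered length was 3655 to 3946 bp in transgenic and 3471 to 3749 bp in the control libraries, a log2 difference of 0.05 ± 0.05 (limma, adjusted p = 0.999). The annotated-end window, which reaches only the upstream arm, had 1356 to 1549 bp in transgenic and 1385 to 1472 bp in the control libraries, a difference of 0.02 ± 0.06 (limma, adjusted p = 1.00). Smaller peaks inside the gene totalled 1034, 511, 0 and 650 bp in transgenic and 314, 309, 792 and 356 bp in control libraries, without order between the groups. Over the 8 libraries the window breadths most like that of Nr3c2 were those of Mark1 (r = 0.961) and Il15 (r = 0.950). These were picked as the best of all windows tested and are a description only.

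**Figure D2:**
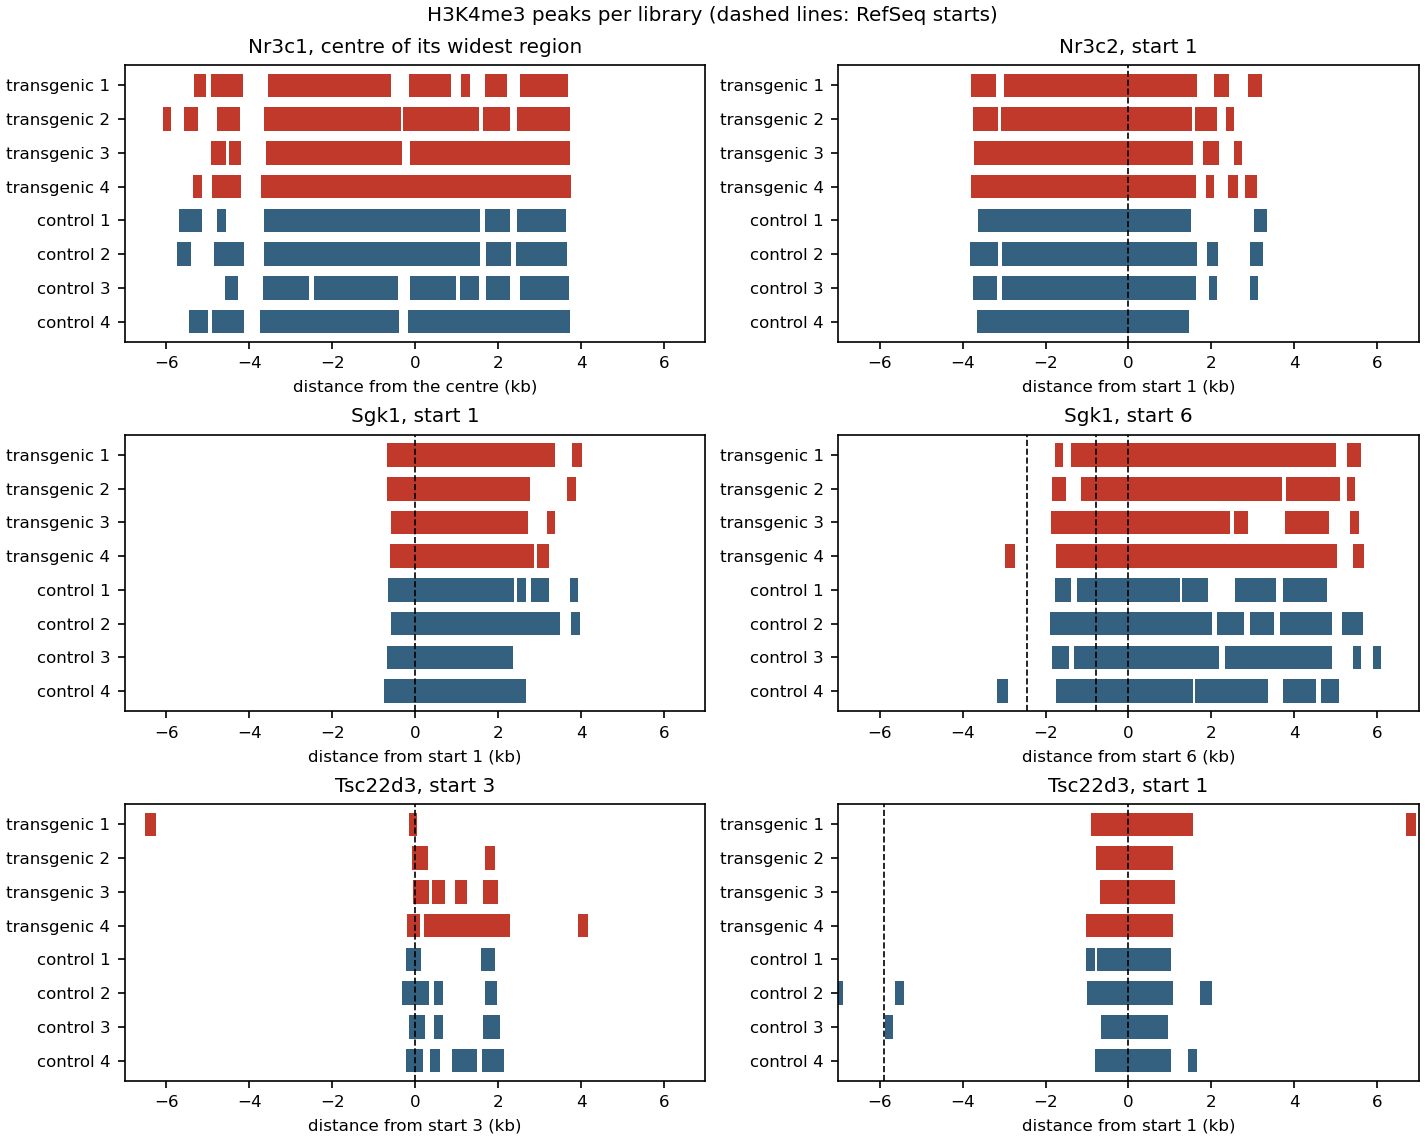
H3K4me3 peaks as bars, with a row per library (transgenic red, control blue), against distance in kb from the centre of the widest Nr3c1 region (increasing genome position) or from a numbered RefSeq start (direction of transcription to the right), with RefSeq starts dashed. The Nr3c2 region extends farther upstream than downstream of the RefSeq start shown in all 8 libraries, and the Sgk1 regions extend downstream. At the distal Tsc22d3 start transgenic 1 has 200 bp of peaks and transgenic 4 has 2082 bp within 2 kb.

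Fkbp5 encodes the co-chaperone that limits receptor activity and is itself a classic receptor target. It spans chr17:28398753-28486149 on the minus strand and had a single region, chr17:28484551-28486631, and no other peak inside. The covered length was 1308, 1651, 1557 and 1827 bp in transgenic 1 to 4 and 1552, 1528, 1413 and 1787 bp in control 1 to 4. Transgenic 1 was the lowest and transgenic 4 the highest, with all controls between them. The log2 difference was −0.01 ± 0.08 in the window (limma, adjusted p = 1.00) and −0.10 ± 0.11 for the region relative to the shift of all regions (limma, adjusted p = 0.909). Without centring the region difference was 0.01. The 300 bases around the start (250 before, 50 after) held 32 CpG dinucleotides, and between 119 and 300 of those bases were under a peak. The strongest peak summit lay 714 to 792 bp downstream of the start in every library.

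Sgk1 encodes a serine/threonine kinase of hormone and stress signalling that regulates ion channels. It spans chr10:21882184-21999903 on the plus strand and had H3K4me3 at opposite ends of the gene. RefSeq lists 6 starts, numbered here by position, at 21882184, 21978672, 21986104, 21992223, 21993890 and 21994666. All 300 bases around starts 1, 5 and 6 were under peaks in all 8 libraries, and none of the 300 bases around starts 2, 3 and 4 was under a peak in any library. The 250 bases before each marked start are printed 5′ to 3′ from RefSeq (GRCm38.p6, the mm10 assembly, plus strand). In starts 1 and 6 the capitals mark CpG dinucleotides. In start 5 they mark the only exact match of a palindromic receptor element, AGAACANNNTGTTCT, among the members' promoters in the table.
Sgk1 start 1, chr10:21881934-21882183: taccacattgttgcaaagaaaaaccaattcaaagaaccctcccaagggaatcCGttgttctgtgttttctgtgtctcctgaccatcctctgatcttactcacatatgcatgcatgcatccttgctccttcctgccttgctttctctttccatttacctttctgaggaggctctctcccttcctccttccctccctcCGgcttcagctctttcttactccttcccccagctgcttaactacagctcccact
Sgk1 start 5, chr10:21993640-21993889: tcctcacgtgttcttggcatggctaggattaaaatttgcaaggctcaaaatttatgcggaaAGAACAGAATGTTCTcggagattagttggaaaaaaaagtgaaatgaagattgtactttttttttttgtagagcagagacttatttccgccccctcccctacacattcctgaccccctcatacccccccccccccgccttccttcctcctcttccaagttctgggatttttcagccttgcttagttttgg
Sgk1 start 6, chr10:21994416-21994665: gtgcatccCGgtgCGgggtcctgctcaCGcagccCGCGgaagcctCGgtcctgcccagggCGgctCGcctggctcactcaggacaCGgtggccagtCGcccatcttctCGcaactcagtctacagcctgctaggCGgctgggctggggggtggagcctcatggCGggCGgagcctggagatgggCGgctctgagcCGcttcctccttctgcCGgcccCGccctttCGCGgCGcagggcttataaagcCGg

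The element before start 5, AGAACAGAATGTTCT at chr10:21993701-21993715, begins 189 bp upstream of that start and was covered by a peak in all 8 libraries. On either strand an exact match occurred in 3 of 32851 RefSeq mouse promoters of the same length (0.00913%), the others being those of Acnat2 and Gm35041, which had no peak in any library. Allowing 1 mismatch in the fixed bases raised the share to 0.164%, and allowing 2 raised it to 1.85%. A match of letters is a description and not a measured binding site. The marked Sgk1 starts differed widely in CpG content, with 3, 10 and 28 CpG in their 300 bases for starts 1, 5 and 6, against 8, 4 and 6 at starts 2, 3 and 4, unmarked in these 300 bases. Start 4 was near the mark, with 1035 to 1573 bp of peaks within 2 kb in the 8 libraries, while starts 2 and 3 had 0 bp there. Start 1 was thus fully covered with as few CpG as the median of the coding-gene starts that had no peak in any library (3, quartiles 1 to 5, over 7422 starts). Over 10882 starts with a peak in all 8 libraries the median was 21 (quartiles 14 to 29).

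**Figure D3:**
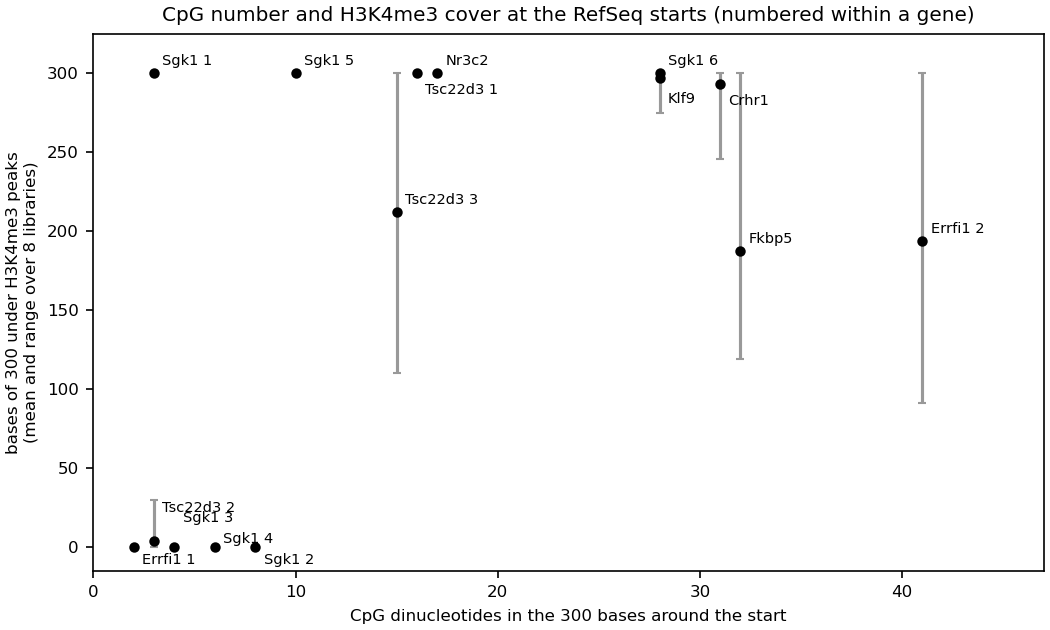
Number of CpG dinucleotides in the 300 bases around each RefSeq start of the members (horizontal axis) against the bases of these under H3K4me3 peaks (vertical axis, mean with the range over 8 libraries), starts numbered within a gene. Starts with 10 or more CpG are covered in all 8 libraries, at least in part. Of those with 8 or fewer, Sgk1 start 1 is fully covered, Tsc22d3 start 2 has 30 bases covered in control 3 only, and the rest have none.

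The region at Sgk1 start 1, chr10:21881430-21885672, covered 4053, 3460, 3519 and 3772 bp in transgenic 1 to 4 and 3693, 4067, 3059 and 3419 bp in control 1 to 4. The groups overlapped (log2 difference −0.05 ± 0.09, limma, adjusted p = 0.996). The lncRNA gene Gm46215 overlaps this start and ends at position 21882278. The wider region at starts 5 and 6, chr10:21992779-21999759, covered 6582, 6469, 5698 and 6783 bp in transgenic and 5530, 6395, 6494 and 6286 bp in control libraries, and ended 144 bp short of the gene end. Transgenic 3 and control 1 were the low libraries, and the difference was −0.06 ± 0.05 (limma, adjusted p = 0.774). A further region of 202 to 734 bp, chr10:21923802-21924616, was present in all 8 libraries between the starts, at no listed start. The mark at starts 5 and 6 thus occupied more bases than that at start 1 in all 8 libraries. In the gene-end window at start 1, the values were 2586 to 2687 bp in transgenic and 2579 to 2755 bp in the control libraries (log2 difference −0.04 ± 0.06, limma, adjusted p = 1.00).

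Tsc22d3 encodes GILZ, a leucine zipper protein that carries anti-inflammatory effects of glucocorticoids. It spans chrX:140539528-140600522 on the minus strand, with RefSeq starts at 140542668 (start 1, inner), 140548571 (start 2) and 140600522 (start 3, distal). The promoters of the marked starts are printed because the mark was steady at start 1 and varied strongly at start 3. They are read from RefSeq (GRCm38.p6, minus strand, 5′ to 3′, 250 bases before the start), with CpG dinucleotides in capitals.
Tsc22d3 start 1, chrX:140542669-140542918: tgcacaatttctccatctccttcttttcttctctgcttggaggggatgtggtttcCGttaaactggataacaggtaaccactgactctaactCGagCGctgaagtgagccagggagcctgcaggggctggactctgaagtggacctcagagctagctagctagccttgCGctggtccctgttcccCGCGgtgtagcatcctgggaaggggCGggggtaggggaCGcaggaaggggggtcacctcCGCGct
Tsc22d3 start 3, chrX:140600523-140600772: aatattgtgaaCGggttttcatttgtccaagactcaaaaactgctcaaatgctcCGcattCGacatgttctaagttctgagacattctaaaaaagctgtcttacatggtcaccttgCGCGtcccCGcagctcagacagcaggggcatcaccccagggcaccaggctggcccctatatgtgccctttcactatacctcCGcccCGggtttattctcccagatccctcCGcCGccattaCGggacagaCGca

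These 2 promoters have like CpG numbers (16 and 15 in the 300 bases around starts 1 and 3). At the inner start, within 2 kb, peaks covered 2482, 1844, 1826 and 2117 bp in transgenic 1 to 4 and 1975, 2364, 1604 and 2067 bp in control 1 to 4, a log2 difference of 0.02 ± 0.14 (limma, adjusted p = 0.999). At the distal start they covered 200, 629, 1349 and 2082 bp in transgenic and 684, 1144, 961 and 1649 bp in control libraries. The transgenic libraries thus held both the lowest and the highest value, and the difference was −0.37 ± 0.50 (limma, adjusted p = 1.00, interval −1.50 to 0.76). It became 0.13 without transgenic 1. The whole region at that start, chrX:140598224-140600845, gave −0.45 ± 0.67 (limma, adjusted p = 0.962) and 0.09 without transgenic 1.

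The peaks inside Tsc22d3 moved with the number of chromosome X peaks in a library. The gene lies on chromosome X, so its own peaks are part of that number. Whether other stretches of the chromosome move likewise was not tested, nor was the part of these peaks in the result. Inside the gene lay 19 regions under 1 kb: peaks occupied 9 of them in transgenic 1, 4 in transgenic 4, 5 each in control 2 and control 3, and none in the other 4 libraries. The total inside the gene was 5726, 1844, 1826 and 3091 bp in transgenic and 1975, 3254, 3051 and 2067 bp in control libraries, so that the 4 libraries with over 10000 peaks on chromosome X had the 4 highest totals. The log2 difference was 0.05 ± 0.38 (limma, adjusted p = 0.999) and turned to −0.33 without transgenic 1. Within the 4 libraries with over 10000 peaks on chromosome X (2 per genotype), and before centring, the difference in mean log2 was −0.51 within 2 kb of the distal start, 0.22 within 2 kb of the inner start and 0.41 for all inside peaks. Within the other 4 it was −0.19, −0.13 and −0.13, so the inner start and the inside total changed sign between these sets. This division was made after the data were seen.

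**Figure D4:**
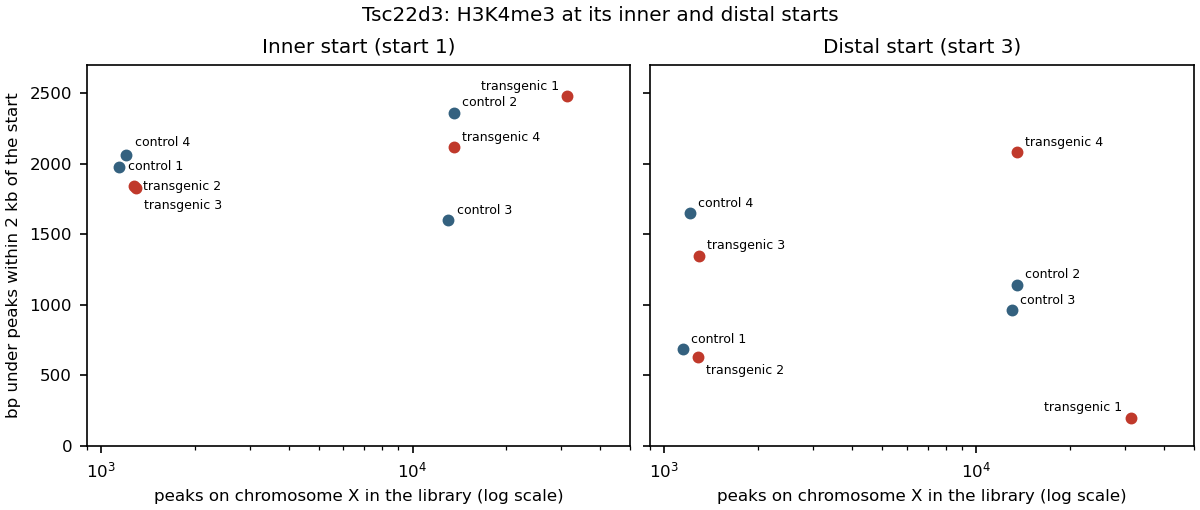
Bases under peaks within 2 kb of the inner (left) and distal (right) Tsc22d3 start, against the number of chromosome X peaks in the library on a log scale, with a labelled point per library (transgenic red, control blue). At the distal start transgenic 1 has the most chromosome X peaks and the lowest value, 200 bp, and transgenic 4 the highest, 2082 bp.

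Klf9 encodes a zinc finger transcription factor induced by glucocorticoid and thyroid hormone in neurons. It spans chr19:23141226-23168129 and its region, chr19:23140095-23145550, covered 4603, 5161, 4976 and 5287 bp in transgenic 1 to 4 and 5169, 4949, 5043 and 5255 bp in control 1 to 4. The mark ran mostly into the gene, a median of 4087.5 bp downstream of the start against 1008.5 bp upstream. The log2 difference of the region was −0.13 ± 0.04, with an unadjusted p of 0.0054 and an adjusted p of 0.479 by limma, and it was −0.03 without centring. Transgenic 1 had the lowest raw length and transgenic 4 the highest, so the groups overlapped. In the window the values were 2744 to 3026 bp in transgenic and 2860 to 3063 bp in the control libraries (−0.06 ± 0.05, limma, adjusted p = 1.00), above 96.0% of all windows tested. A neighbouring region, chr19:23145777-23147028, had a peak in 7 of 8 libraries, and with it the peaks inside the gene, away from the main region, totalled 906, 814, 506 and 771 bp in transgenic and 302, 957, 200 and 676 bp in control libraries. That difference was 0.48 ± 0.40 (limma, adjusted p = 0.889, interval −0.44 to 1.40), and from 0.18 (without control 3) to 0.78 (without control 2) when a single library was left out.

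Zbtb16 encodes PLZF, a transcriptional repressor whose RNA rises with glucocorticoids in many tissues. It spans chr9:48651797-48836225 and carried the region with the highest mean length of the 10 genes, chr9:48830039-48837561, although the Nr3c1 region was the wider in transgenic 3 and 4 and control 1, 2 and 4. It covered 7063, 7150, 6593 and 7273 bp in transgenic 1 to 4 and 6668, 6918, 7264 and 7256 bp in control 1 to 4, so the group means were 7020 ± 297 bp and 7027 ± 288 bp (SD, n = 4 each). The centred log2 difference was −0.11 ± 0.03, with an unadjusted p of 0.00416 and an adjusted p of 0.448 by limma. Without centring it was −0.00, so the centred value has the size of the shift over all regions. The region was broader than 99.9% of tested regions, which had a median length of 195 bp. In the window, Zbtb16 had 2908 to 3257 bp in transgenic and 2932 to 3337 bp in the control libraries (−0.08 ± 0.06, limma, adjusted p = 1.00). Regions at chr9:48669683-48671068 and chr9:48827583-48829802, inside the gene, also had a peak in all 8 libraries. These and the smaller peaks inside the gene, away from the main region, totalled 2924, 2087, 1900 and 2364 bp in transgenic and 1152, 2382, 1436 and 3824 bp in control libraries, with both extremes among the controls (0.11 ± 0.31, limma, adjusted p = 0.999, and −0.04 without transgenic 1).

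Errfi1, a gene induced by glucocorticoids, encodes MIG6, a feedback inhibitor of the epidermal growth factor receptor family. It spans chr4:150853796-150868889, and RefSeq lists starts at 150853796 and 150855070 on the plus strand, 1 of them marked. Their promoters are printed as a marked and an unmarked start of the same gene (GRCm38.p6, plus strand, 5′ to 3′, 250 bases before the start). The capitals mark CpG dinucleotides in start 1 and, in start 2, the cAMP response element letters TGACGTCA, which begin 51 bp upstream of the start.
Errfi1 start 1, chr4:150853546-150853795: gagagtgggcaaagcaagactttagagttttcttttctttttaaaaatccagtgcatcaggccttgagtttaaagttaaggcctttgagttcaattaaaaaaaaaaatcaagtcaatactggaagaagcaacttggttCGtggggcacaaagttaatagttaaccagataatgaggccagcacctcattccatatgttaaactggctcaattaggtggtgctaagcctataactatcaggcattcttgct
Errfi1 start 2, chr4:150854820-150855069: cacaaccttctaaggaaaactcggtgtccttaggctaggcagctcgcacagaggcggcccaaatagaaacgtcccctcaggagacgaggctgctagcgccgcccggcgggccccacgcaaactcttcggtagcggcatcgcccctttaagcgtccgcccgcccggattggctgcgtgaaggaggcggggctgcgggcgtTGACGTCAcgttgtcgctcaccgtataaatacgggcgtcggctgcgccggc

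Start 1 had 2 CpG in its 300 bases and no covered base in any library, and start 2 had 41 CpG and 91 to 300 covered bases. The letters TGACGTCA, searched on both strands, occurred in 1.79% of RefSeq promoters. Within 2 kb of start 2 the covered length was 2039, 2211, 2244 and 2509 bp in transgenic 1 to 4 and 1933, 2140, 2177 and 2565 bp in control 1 to 4. Replicates 4 were the highest in both groups, and the log2 difference was 0.01 ± 0.06 (limma, adjusted p = 0.999). The single region of the gene, chr4:150854058-150857292, gave −0.04 ± 0.08 (limma, adjusted p = 1.00). The annotated-end window reached only part of it, with 965 to 1600 bp in transgenic and 1004 to 1672 bp in the control libraries, a difference of −0.04 ± 0.15 (limma, adjusted p = 1.00) that was 0.04 without transgenic 1. The lncRNA gene 1700045H11Rik ends inside this region, at position 150854949.

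Crh encodes corticotropin-releasing hormone, which in the hippocampus is made mainly by interneurons. It spans 1996 bp, chr3:19693401-19695396, and its only region, chr3:19693808-19695212, lay wholly within the gene. The covered length was 798, 552, 961 and 1355 bp in transgenic 1 to 4 and 818, 1147, 917 and 1062 bp in control 1 to 4. The transgenic libraries held both the lowest and the highest value. The log2 difference was −0.17 ± 0.21 in the window (limma, adjusted p = 1.00) and −0.25 ± 0.21 for the region (limma, adjusted p = 0.729). Without transgenic 2 they were 0.03 and −0.06, and without transgenic 4 they were −0.33 and −0.43. Crh had the narrowest mark of the 10 genes. In sorted nuclei of mixed neuron types, fewer marked nuclei and a narrower mark per nucleus cannot be told apart. The lncRNA gene Gm42189 overlaps most of this region, and the coding gene Trim55 ends at position 19692584, within 2 kb.

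Crhr1 encodes the main receptor for that peptide and spans chr11:104130463-104175523. Its region, chr11:104131778-104135174, covered 2342, 2757, 3243 and 3158 bp in transgenic 1 to 4 and 2885, 2812, 2629 and 3331 bp in control 1 to 4. Transgenic 1 was lowest and control 4 highest, and the log2 difference was −0.13 ± 0.08 (limma, adjusted p = 0.702) and −0.02 without centring. The start of the annotated gene lay off this region, so its window held only 366, 420, 603 and 646 bp in transgenic and 658, 686, 537 and 660 bp in control libraries. The difference there was −0.32 ± 0.20 (limma, unadjusted p = 0.151, adjusted p = 1.00), the window closest to the threshold among the members. Within 2 kb of the RefSeq start at 104132781, which had 31 CpG, it was −0.08 ± 0.06 (limma, adjusted p = 0.999), with 2342 to 2964 bp in transgenic and 2629 to 2978 bp in the control libraries. A further region inside the gene, chr11:104157396-104158881, had a peak in all 8 libraries, with 1142, 1385, 1204 and 1247 bp in transgenic and 1393, 1115, 1107 and 1135 bp in control libraries. Its strongest peak exceeded 75.7% to 84.9% of the peaks of its own list in the authors' fold enrichment, against 91.3% to 96.2% at the main Crhr1 region.

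By the authors' fold enrichment, ranked within each list, the members' regions reached different heights. In the Klf9 region the strongest peak exceeded 92.2% to 99.6% of all peaks of its library, in the Zbtb16 region 94.0% to 99.7%, and in the Nr3c2 region 93.4% to 98.9%. The range was 91.3% to 96.2% at Crhr1, 87.7% to 96.1% at Sgk1 start 1 and 84.4% to 96.5% at Errfi1. The widest Nr3c1 region reached 81.0% to 93.0%, Fkbp5 80.0% to 92.4% and Crh 62.2% to 80.9%. The distal Tsc22d3 region ranged from 4.00% to 75.9%, with the low value in transgenic 1 alone. In the other libraries it ranged from 57.3% (control 2) to 75.9% (transgenic 4). These ranks give no comparison between libraries, since the lists differ in length.

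Over the members, 1 of 9 window differences was above 0 and 8 were below, with a median of −0.06, beside 46.4% above 0 and a median of −0.01 over all windows. Without centring 2 windows were above 0 and 7 below. For regions the counts were 1 above and 8 below with centring and 4 above and 5 below without it. With centring, the member regions had a median of −0.11, beside 52.6% above 0 and a median of 0.03 over all regions. Without transgenic 1, the windows above 0 numbered 4 (Nr3c2, Fkbp5, Tsc22d3 and Errfi1) and those below 0 numbered 5, from −0.24 at Crhr1 to 0.13 at Tsc22d3. The 64 regions at or in the members held 17 with a peak in all 8 libraries and 30 with a peak in a single library. Of 34 tested regions limma called none, and 2 had an unadjusted p under 0.05, the main regions of Klf9 and Zbtb16. Over all features, 4585 of 72683 regions had an unadjusted limma p under 0.05, a like share. The 95% confidence interval lay within a 1.5-fold change in either direction for 6 of 9 windows, 7 of 9 regions and 3 of 7 inside totals. Changes beyond 1.5-fold remain within the interval for the windows of Tsc22d3, Crh and Crhr1, the regions of Tsc22d3 and Crh, and the inside peaks of Nr3c2, Tsc22d3, Klf9 and Zbtb16.

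**Figure D5:**
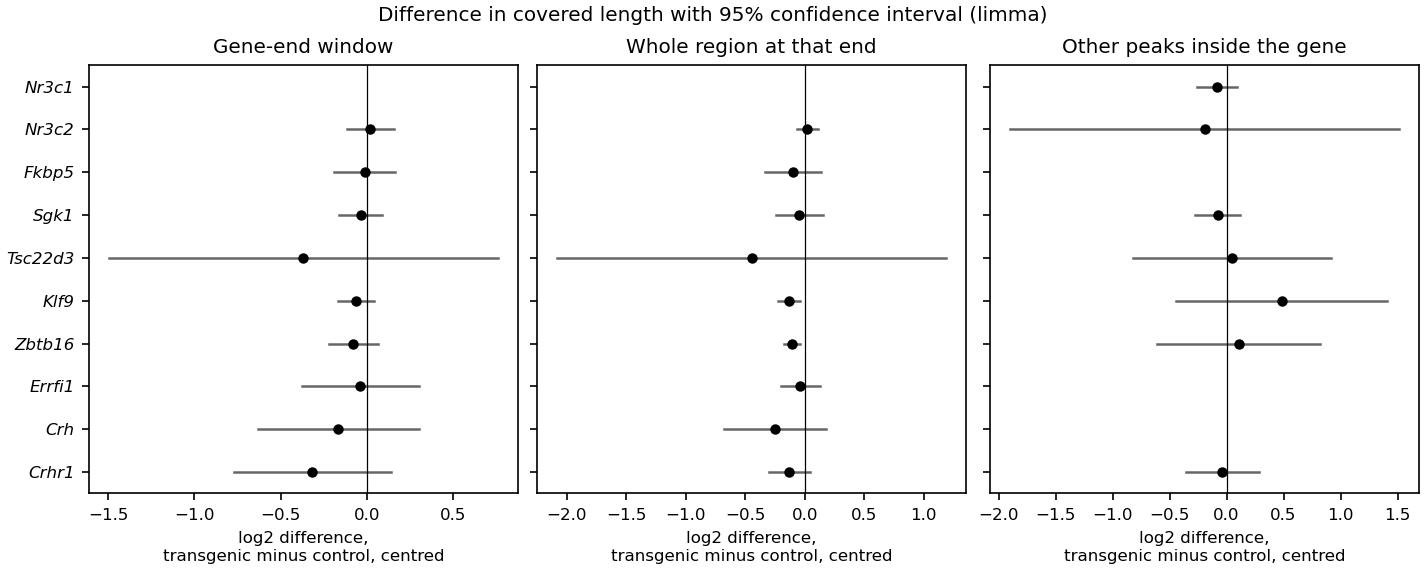
Centred log2 difference in covered length, transgenic minus control, with its 95% confidence interval from limma (n = 4 per group), for the gene-end window, the whole region there and the other peaks inside the gene. Intervals are narrow for Nr3c2, Sgk1, Klf9 and Zbtb16 in the first 2 panels and widest for Tsc22d3 there, and genes without a tested value have no point.

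In the wider pathway, no gene of 4 lists passed the test. Of 30 further glucocorticoid response genes, 23 had a window peak in all 8 libraries, and of the 24 tested 12 were above 0 and 12 below, with a median log2 difference of 0.00. Among them were Per1, a clock gene with receptor-driven induction (−0.00), the phosphatase gene Dusp1 (0.00), the mTOR inhibitor gene Ddit4 (0.01), the NF-kB inhibitor gene Nfkbia (0.05) and Fam107a, an actin regulator gene induced by stress (−0.24, and −0.03 without transgenic 1). All 25 receptor chaperones and coregulators had a window peak in every library, with 15 above 0, 10 below and a median of 0.01. Hsp90ab1, a chaperone that holds the receptor ready to bind, stood at −0.02, the co-chaperone Fkbp4 at −0.00, the coactivator Ncoa1 at 0.04 (0.12 without transgenic 1) and the corepressor Ncor1 at −0.10. The unadjusted p was under 0.05 for Ncor1 (0.0486) and for the coactivator Ncoa3 (−0.24, 0.0189, named after its value was seen), and the limma adjusted p was 1.00 for both. Without transgenic 1 these differences were −0.07 and −0.15.

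Of 12 genes of steroid supply and turnover, 4 had a peak in all 8 libraries and 6 in none, among the latter Hsd11b1, the enzyme that regenerates active glucocorticoid. Of the 5 tested, 2 were above 0 and 3 below (3 and 2 without transgenic 1). Of 16 stress peptides and their receptors, 12 were tested, with 1 above 0, 11 below and a median of −0.10. Without transgenic 1 these were 5 above, 7 below and −0.05. Crhbp, which binds and buffers the releasing hormone, had 546, 676, 935 and 907 bp in transgenic and 844, 964, 830 and 975 bp in control libraries (−0.26 ± 0.14, limma, adjusted p = 1.00, and −0.16 without transgenic 1). The peptide gene Ucn stood at −0.19 and the vasopressin receptor gene Avpr1b at −0.07 (0.01 and 0.12 without transgenic 1), and Crhr2 had no peak in any library. In this list Crem, a transcription factor of cAMP signalling, had an unadjusted p of 0.0496 (−0.13, limma adjusted p 1.00, named after its value was seen). Among the marker lists, oligodendrocyte lineage genes had 1 above 0 and 4 below (median −0.26, with Cnp at an unadjusted p of 0.0196) and endothelial genes 0 above and 4 below (median −0.42). Without transgenic 1 the oligodendrocyte median was −0.29 over 5 genes and the endothelial median −0.07 over 3. Of the oligodendrocyte list, Mbp, Cnp, Cldn11 and Olig1 had a window peak in all 8 libraries, and Mog, Mag and Mobp had none in any. Of the endothelial list, Cldn5 and Kdr had a window peak in all 8 libraries, and Pecam1, Tek, Slco1a4, Ly6c1 and Vwf had none in any. The other genes of both lists had a window peak in some libraries. Summed over the endothelial list, the windows held 1350 to 3411 bp in transgenic and 2452 to 3645 bp in the control libraries, and for the oligodendrocyte list 4531 to 6544 bp and 5177 to 6980 bp. Their part in the results for the members was not tested.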

How the data were processed

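H3K4me3 was mapped in 8 libraries, 4 per genotype, grouped by their titles. The submitters' processing notes name build mm10 and, without role or setting, MACS2, DiffBind, limma, Bowtie2 (2.0.2), deepTools (3.0.1), SAMtools (1.3.1) and FastQC (0.11.5). For every library the authors deposited a list in narrowPeak layout: per peak, positions, a score, a fold enrichment, and p- and q-values as −log10. Lists were called library by library, so depth and precipitation can change the number and the width of peaks. Their part in the results was not tested.

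Peaks were merged within a library, and covered bp were summed in the windows, regions and genes of the RefSeq annotation of GRCm38.p6. Windows needed a peak in at least 4 libraries and regions in at least 2. Values were log2(bp + 100), centred per library on the median of features with a peak in all 8, and tested with limma 3.58.1 (trended, robust variance, Benjamini-Hochberg over all features, threshold 0.05), after a test on simulated data. The score was not used, the deposited fold enrichment served only for ranks within a list, and the −log10 q-value for stricter and equal-number sets of peaks. Exons and introns could not be divided with the annotation used. RefSeq starts were on hand for 7 of 10 members, and promoter motifs were counted in 32851 RefSeq promoters. All 10 members and 14 genes of the wider pathway are named by a fixed rule, with the 2 windows most like that of Nr3c2, Nr3c1 having no tested window. Members and lists were chosen with earlier results of these data known. Sample descriptions and list names carry different letters but the same group names.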

Additional observations from a re-analysis of the deposited data

Results flagged for a closer look

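Among 66 groups of 4 libraries checked, 5 had a highest or lowest library far from the other 3, judged by its gap relative to the whole range. Chance alone flags about 1 in 20 groups. In the gene-end window of Nr3c2 the highest control library stood at 1472 bp, against 1385 to 1397 bp in the other 3. In the other peaks inside Nr3c2 the highest control library had 792 bp, against 309 to 356 bp. At the Errfi1 region the highest transgenic library had 2509 bp, against 2211 to 2261 bp. In the other peaks inside Sgk1 the lowest transgenic library had 5900 bp, against 7284 to 7367 bp. At the Crhr1 region chr11:104157396-104158881 the highest control library had 1393 bp, against 1107 to 1135 bp. In this order the libraries were control 2, control 3, transgenic 4, transgenic 3 and control 1.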

How the results depend on the processing

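Depth is unknown from peak lists, breadth saturates in a window of 4001 bp, and a region spans several starts or overlapping genes, so the values limit statements to covered bases. No member passed the threshold under any alternative: of 487 member values recomputed, 443 kept their sign and 44 took the other, and the smallest limma adjusted p was 0.397, for the Nr3c2 region without centring. The sign held under every alternative for the windows of Crhr1, Klf9, Sgk1 and Zbtb16 and the regions of Crh, Crhr1, Klf9 and Zbtb16, and turned under at least 1 for the other member values. Counts over all features moved as follows. Called windows, 0 in the reported fit, numbered 5 with ordinary variance, and 0 without any single library. Called regions, 35 in the reported fit, numbered 118 without centring, 1 with equal numbers of top-ranked peaks, 296 with ordinary variance, 0 with the replicate block, 0 with a peak in at least 4 libraries and 10 on autosomes only, and 15 (without transgenic 1) to 54 (without control 3) when each library was left out. Genes called for inside peaks, 0 in the reported fit, numbered 2 without centring, 4 with quantile normalization, 9 with ordinary variance, 2 with a peak in at least 1 library and 1 on autosomes only, and 0 to 4 when each library was left out (4 without transgenic 1). The cause was not tested. The windows at RefSeq starts, the autosomes-only fits, the values of pathway genes without transgenic 1 and the division of Tsc22d3 by chromosome X peaks were chosen after seeing the data. Deviations of same-numbered libraries from their group means correlated with r between −0.11 and 0.32, and those of differently numbered libraries between −0.32 and 0.22. The highest r of all pairs was that of transgenic 4 and control 4. So few pairs cannot show whether the numbers pair the samples, and the reported fit used no pairing.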
